A study of Mus musculus with 4 samples.

Results

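The 28 genes examined here encode regulators and enzymes of cholesterol and fatty acid synthesis. They were taken by name from the deposited count table, which lists 50559 genes, and all 28 were found in it. They comprise 5 genes of the SREBP system, 7 of the mevalonate pathway, 11 enzymes of the squalene and sterol steps, the sterol carrier gene Stard4 and 4 lipogenic genes. The list does not hold every enzyme of these pathways. RNA-seq had been made from mouse ESCs of the E14 line, which are pluripotent cells grown without feeders on gelatin in serum replacement medium with LIF. The cells carried a tdTomato reporter under the MERVL promoter, per the study's methods, in both groups. One group received an siRNA that targets Cnot1 (siCnot1) and the other a non-targeting siRNA (siNT), each by lipofection at 150 nM. Cells were collected after 48 h, and each group had 2 libraries. The study lists more than one siRNA against Cnot1 and does not say which was used here, so an effect of the siRNA itself and the loss of Cnot1 cannot be told apart. The study's methods call the replicates independent and biological, and the labels say no more of how they were made.

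Cells make cholesterol from acetyl-CoA through mevalonate, farnesyl diphosphate, squalene and lanosterol. SREBP proteins are membrane-bound transcription factors that turn on genes of this route and of fatty acid synthesis. SCAP escorts them out of the endoplasmic reticulum when sterols are low, and INSIG proteins hold SCAP back when sterols are high. CNOT1 holds together the CCR4-NOT deadenylase, which shortens poly(A) tails and is brought to many mRNAs by proteins that bind 3′ UTRs. Two-cell-like cells are rare ESCs that resemble the early cleavage embryo, and the study asked whether loss of CNOT1 raises their transcripts.

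Counts on genes totalled 32135824 to 32557440 per library, so depth was close in all 4. Cnot1 (GRCm39 chromosome 8, 96445559 to 96534741) had 912 and 985 normalized CPM in siNT and 185 and 192 in siCnot1, which is 19.8% of the control level. CPM here are counts scaled to library size, after TMM had corrected the sizes for composition. Mitochondrial transcripts took 1.2% and 1.4% of counts in the siNT libraries, against 2.1% and 1.8% with siCnot1. Of 8 ESC markers, all were present, 6 were lower and none was higher, with a summed FPKM (CPM per kilobase of exon) of 4607 and 4233 in siNT and 3438 and 3614 in siCnot1. Of 8 markers of two-cell-like cells, 5 were higher, with sums of 42.9 and 45.7 against 104 and 84.0 FPKM. Primitive endoderm markers summed to 3.08 and 2.48 against 4.04 and 4.15 FPKM, with 2 of 6 tested higher. Trophectoderm markers summed to 27.6 and 28.4 against 18.1 and 17.0 FPKM, with 3 of 6 tested lower, and fibroblast markers to 4.58 and 6.21 against 5.98 and 5.71 FPKM, with 1 of 3 tested higher. That gene was Col1a1, at 1.25 and 1.53 normalized CPM in siNT and 3.46 and 3.91 in siCnot1, while Dcn was at 0 counts in all 4 libraries. Thy1 held most of the fibroblast sum and overlapped between the groups, at 4.31 and 5.84 FPKM in siNT and 5.24 and 5.01 in siCnot1. For these markers, higher and lower mean an adjusted p under 0.05 in the edgeR test described below. That test called 15.0% of all tested genes higher and 14.7% lower, and no marker list was tested against these shares. The part that the shifts in markers and mitochondrial transcripts play in the results below was not tested. In bulk RNA, fewer cells of a type and less RNA per cell cannot be told apart.

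All 28 genes passed the filter on low counts, and all were read from a fit over the 18144 genes that passed. At an adjusted p under 0.05 (edgeR's quasi-likelihood test, with p-values adjusted after Benjamini and Hochberg; SE below is the standard error), 8 of the 28 were higher in siCnot1 and 8 were lower. Among all tested genes the same test called 15.0% higher and 14.7% lower, 29.7% in either direction. Changes were small. None of the 28 reached 2-fold, and the log2 fold changes ran from -0.78 in Cyp51 to 0.67 in Tm7sf2, with a median of 0.06 against 0.01 for all tested genes. The median size of the change, regardless of sign, was 0.254 on the log2 scale for the 28 genes and 0.257 for all tested genes. The 28 genes were expressed more strongly than most, with a median of 121 normalized CPM in siNT against 11.3, and their median standard error was 0.0663 against 0.139. The part of that precision in the counts of calls was not tested. In 11 of the 28 both siCnot1 libraries lay above both siNT libraries and in 13 both lay below, against 32.7% and 31.2% of all tested genes. With library totals in place of TMM scaling, the median log2 fold change of all tested genes moved from 0.01 to 0.12, and the split of the members became 11 higher and 4 lower, beside 3989 and 1567 of all tested genes. Of all calls under that scaling 71.8% were higher, against 73.3% of those among the members. That scaling adds about the same shift to each log2 fold change below, so the sign of values and medians near 0 depends on it. The counts also rested on having both replicates. They were 2 higher and 4 lower without siNT replicate 1, where 3.83% of all tested genes were higher and 4.49% lower. Without siNT replicate 2 they were 5 and 5, beside 5.33% and 5.82% of all genes. Without siCnot1 replicate 1 they were 4 and 5, beside 6.34% and 6.50%, and without siCnot1 replicate 2 they were 5 and 6, beside 7.51% and 7.64%. Insig1, Scd2, Pmvk, Idi1 and Cyp51 kept their calls at an adjusted p under 0.05 in each of these 4 fits and in each of 8 other settings of scaling, filter, test and block.

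**Figure D1:**
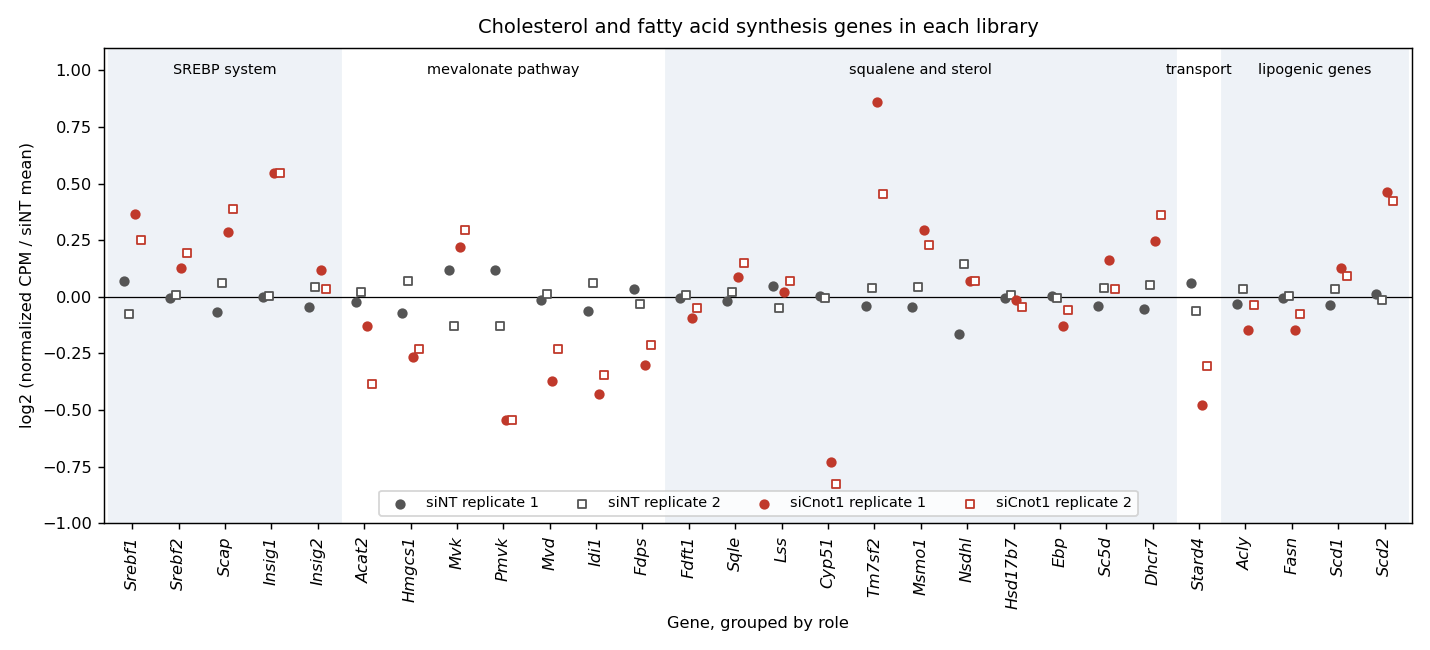
Normalized CPM of each of the 28 genes in each library, as log2 of its ratio to the siNT mean (vertical axis), with genes grouped by role (horizontal axis) and a line at the siNT mean. The siCnot1 points lie above the siNT points in 4 of 5 SREBP system genes and below them in 6 of 7 mevalonate pathway genes. Among all tested genes they lie above in 32.7% and below in 31.2%.

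Counts of calls are given by role, beside 15.0% higher and 14.7% lower among all tested genes, and no difference between roles was tested. In the SREBP system 4 of 5 were higher and none lower, and the median log2 fold change was 0.31. In the mevalonate pathway 6 of 7 were lower and none higher, with a median of -0.26. Among the squalene and sterol enzymes 3 of 11 were higher and 1 lower, with a median of 0.07. The calls among these enzymes went in both directions and 7 of the 11 did not pass. Stard4 was lower, and 1 of the 4 lipogenic genes was higher, with a median of 0.01. Summed per length, the SREBP system had 154 and 155 FPKM in siNT and 192 and 196 in siCnot1, while the mevalonate genes had 394 and 401 against 329.8 and 336. The sums of the sterol enzymes overlapped between the groups, at 323 and 336 FPKM in siNT and 338 and 334 in siCnot1. The counts by role were not stable. With library totals, which add about the same amount to every log2 fold change, calls among all tested genes became 3989 higher and 1567 lower. Under that scaling 2 mevalonate genes, Pmvk and Idi1, were lower and 1, Mvk, was higher, and the SREBP system had 4 higher. Leaving out 1 library lowered the counts of both these roles, and calls among all tested genes fell too, to the shares given above. Over those fits the log2 fold change ran from 0.54 to 0.55 in Insig1 and from 0.27 to 0.40 in Scap. It ran from 0.24 to 0.38 in Srebf1 and from 0.12 to 0.19 in Srebf2. The range was -0.66 to -0.42 in Pmvk, -0.45 to -0.33 in Idi1 and -0.32 to -0.18 in Hmgcs1. In Fdps it was -0.31 to -0.22, in Mvd -0.38 to -0.23 and in Acat2 -0.39 to -0.14.

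SREBPs bind a sterol regulatory element and also an E-box, and they act beside factors that bind CCAAT and GC boxes. RefSeq promoter windows (GRCm38.p6, 250 bases before to 50 after a transcription start) were found for 22 of the 28 genes. They were searched on both strands, overlapping matches included. Fdps, Fdft1, Sqle, Stard4, Scd1 and Scd2 had no window and were not searched. CCAAT was present in 20 of the 22 (90.9%), against 43.0% of the 12821 tested genes with a window and 37.4% of all 32851 windows. GGGCGG was present in 20 of the 22, against 63.2% of tested genes and 35.7% of windows. CACGTG, the E-box, which reads the same on both strands, was present in 5 of the 22 (22.7%), against 11.2% of tested genes and 7.15% of windows. TCACNCCAC, a common form of the sterol regulatory element, was present only in the window of Hmgcs1, against 1.51% of tested genes and 1.24% of windows. A match is a description of the letters in these windows and not a bound site.

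The stretches with the E-box or the sterol element are printed because few promoters hold them and the genes that do differ in their change. Of the 5 genes with an E-box, Insig1, Scap and Dhcr7 were higher and Hsd17b7 and Sc5d did not pass the test. None of the 5 was lower. Of the 17 genes with a window and no E-box, 4 were higher and 6 lower, among them Hmgcs1, which has the sterol element. Among all tested genes 15.0% were higher and 14.7% lower. With genes this few no test was made. The capitals mark the E-box, or TCACNCCAC in Hmgcs1, and each sequence is given 5′ to 3′ on the strand of its gene. Insig1 is at chr5:28071296-28071331 on the plus strand with the E-box at -101 from the start, Scap at chr9:110333301-110333336 (plus), Dhcr7 at chr7:143823220-143823255 (plus, -164), Hsd17b7 at chr1:169969328-169969363 (minus, -143), Sc5d at chr9:42264378-42264413 (minus, -98) and Hmgcs1 at chr13:119690199-119690237 (plus, -137). The E-box of Scap lies in windows of more than one annotated start, at 29 after one and at -40 from the other. Dhcr7 also has several annotated starts, and its E-box lies in the window of an upstream one. Its CCAAT matches lie in the window of a different start, at chr7:143830114-143830148 and chr7:143830150-143830184.
Insig1: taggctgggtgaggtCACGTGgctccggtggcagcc
Scap: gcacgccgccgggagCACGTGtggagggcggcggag
Dhcr7: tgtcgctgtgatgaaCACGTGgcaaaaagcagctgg
Hsd17b7: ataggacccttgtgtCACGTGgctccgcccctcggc
Sc5d: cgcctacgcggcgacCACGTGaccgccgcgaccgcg
Hmgcs1: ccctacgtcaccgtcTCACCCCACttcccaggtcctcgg

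In the SREBP system, Insig1, Scap, Srebf1 and Srebf2 rose in siCnot1 and Insig2 did not pass the test. Insig1 (chromosome 5, 28276410 to 28283660) encodes an anchor that holds SCAP in the endoplasmic reticulum and is itself a well-known SREBP target. It had 135.5 and 135.9 normalized CPM in siNT and 198.1 and 198.1 in siCnot1. The siCnot1 libraries were far above the siNT libraries and the replicates of each group almost coincided. The log2 fold change was 0.55 (SE 0.0579, edgeR adjusted p = 2.14e-07). Scap (chromosome 9, 110162356 to 110214017), the escort of the SREBPs, had 69.1 and 75.5 normalized CPM in siNT and 88.1 and 94.6 in siCnot1, a log2 fold change of 0.34 (SE 0.0710, edgeR adjusted p = 8.42e-04). Srebf1 (chromosome 11, 60089910 to 60113407), whose protein mainly drives lipogenic genes, had 72.9 and 65.9 against 89.2 and 82.5, a log2 fold change of 0.31 (SE 0.0732, edgeR adjusted p = 0.00245). Srebf2 (chromosome 15, 82031470 to 82089580), whose protein mainly drives cholesterol genes, had 393 and 397 against 432 and 452, a log2 fold change of 0.16 (SE 0.0541, edgeR adjusted p = 0.0271). In these 3 genes both siCnot1 libraries lay above both siNT libraries, by less than in Insig1. Insig2, the paralog of Insig1, had 24.2 and 25.7 against 27.1 and 25.6, so the groups overlapped, and the 95% interval of its log2 fold change ran from -0.13 to 0.29 (adjusted p = 0.616, edgeR). The log2 ratio of Insig1 to Insig2 within a library, on the FPKM scale, was 3.89 and 3.81 with siNT but 4.28 and 4.36 with siCnot1. That ratio does not depend on the scaling of libraries.

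The calls in this group differed in how firm they were. Srebf2 did not pass without any of the 4 libraries in turn (adjusted p = 0.0933 to 0.253, edgeR), nor without a filter on low counts (adjusted p = 0.0892). Srebf1 did not pass without siNT replicate 1 (adjusted p = 0.0552), siNT replicate 2 (0.118) or siCnot1 replicate 1 (0.126), or without the filter (0.0669). Scap did not pass without siNT replicate 1 (adjusted p = 0.0965, edgeR) or siCnot1 replicate 2 (0.0794). Of Srebf1's exon bases, 2.32% overlap Rai1 on the other strand, and whether counting used strand is not given in the sources used here.

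The 7 listed partners of SREBP cleavage and turnover were also examined, with a median log2 fold change of 0.18. Of these, 2 were higher and none lower, beside 15.0% higher and 14.7% lower among all tested genes. Mbtps1, the first of the proteases that cut SREBPs, had 331 and 320.1 normalized CPM in siNT and 378 and 379 in siCnot1, a log2 fold change of 0.22 (adjusted p = 0.00373, edgeR). Pgrmc1, a heme protein that binds INSIG1 and sterol enzymes, had 0.18 (adjusted p = 0.0400, edgeR).

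**Figure D2:**
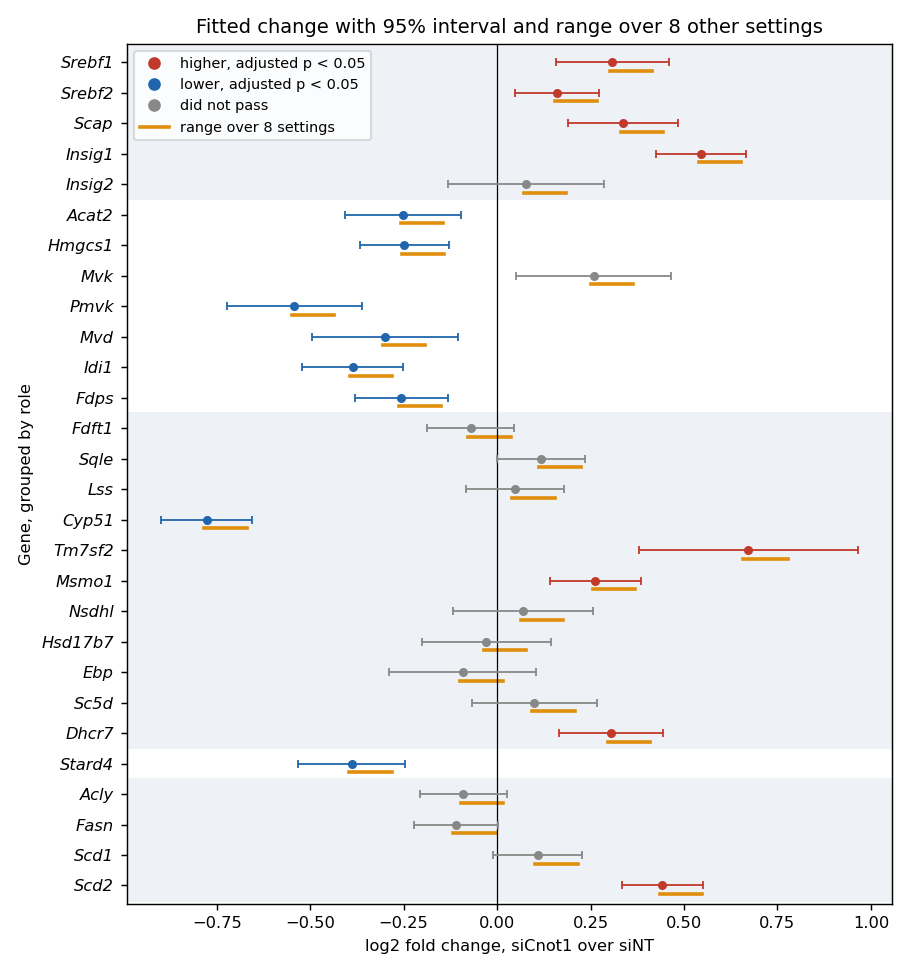
Log2 fold change of siCnot1 over siNT (horizontal axis) for the 28 genes in pathway order (vertical axis), where the points are fitted values, the bars 95% intervals and the orange lines the range over 8 other settings. Cyp51 is farthest to the left at -0.78, and the range of the 4 genes Fdft1, Hsd17b7, Ebp and Acly crosses 0.

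In the mevalonate pathway, which runs from acetyl-CoA to farnesyl diphosphate, Acat2, Hmgcs1, Pmvk, Mvd, Idi1 and Fdps fell and Mvk did not pass the test. Acat2 (chromosome 17, 13161929 to 13179612), the cytosolic thiolase that joins acetyl-CoA units, had 95.5 and 98.5 normalized CPM in siNT and 88.7 and 74.3 in siCnot1, a log2 fold change of -0.25 (SE 0.0752, edgeR adjusted p = 0.0135). Hmgcs1 (chromosome 13, 120151887 to 120169796), the cytosolic HMG-CoA synthase, had 529.8 and 584 against 464 and 475, a log2 fold change of -0.25 (SE 0.0570, edgeR adjusted p = 0.00186). Both siCnot1 libraries were below both siNT libraries in each gene, but siCnot1 replicate 2 was well below replicate 1 for Acat2.

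Pmvk (chromosome 3, 89361848 to 89376321), the phosphomevalonate kinase, fell most among the 7 genes. It had 67.9 and 57.3 normalized CPM in siNT and 43.0 in both siCnot1 libraries, a log2 fold change of -0.54 (SE 0.0876, edgeR adjusted p = 5.01e-05). Mvd (chromosome 8, 123160335 to 123170161), the diphosphomevalonate decarboxylase, had 37.4 and 38.2 against 29.2 and 32.2, a log2 fold change of -0.30 (SE 0.0941, edgeR adjusted p = 0.0183). Idi1 (chromosome 13, 8935642 to 8942432), the isopentenyl diphosphate isomerase, had 123 and 133 against 95.0 and 101, a log2 fold change of -0.39 (SE 0.0652, edgeR adjusted p = 8.29e-05). In each of these 3 the groups were separate. Fdps (chromosome 3, 89000895 to 89009274), the farnesyl diphosphate synthase, had 176 and 168 against 139.8 and 148, also without overlap, a log2 fold change of -0.26 (SE 0.0603, edgeR adjusted p = 0.00225). Mvk, the mevalonate kinase, stood apart from its neighbours in the pathway. It had 33.0 and 27.8 normalized CPM in siNT and 35.5 and 37.3 in siCnot1, and the 95% interval of its log2 fold change ran from 0.05 to 0.46 (adjusted p = 0.0543, edgeR). Both siCnot1 values were above both siNT values, and the gene passed as higher with upper-quartile scaling (adjusted p = 0.0386), library totals (0.00739), a filter of 1 CPM in 2 libraries (0.0346) or limma-voom (0.0420).

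At an adjusted p under 0.05, Pmvk and Idi1 were called lower under each scaling, filter and test and in each leave-out fit. Mvd was not, failing without any 1 of the 4 libraries (adjusted p = 0.0561 to 0.224, edgeR), and without a filter on low counts Mvd and Acat2 did not pass (adjusted p = 0.0800 and 0.159). With library totals in place of TMM Acat2, Hmgcs1, Mvd and Fdps did not pass (adjusted p = 0.162, 0.0519, 0.127 and 0.0557). Acat2 also failed without siNT replicate 1 (0.193), siNT replicate 2 (0.235) or siCnot1 replicate 2 (0.312, with the log2 fold change at -0.14), Hmgcs1 without siNT replicate 2 (0.103) or siCnot1 replicate 1 (0.0714), and Fdps without siNT replicate 1 (0.0972) or siCnot1 replicate 1 (0.0914). Reads of some of these genes may be shared with other annotated genes. In GENCODE M21, 80.4% of the 75-base stretches of the Fdps transcript occur in 5 other genes. Of those of Acat2, 40.7% occur in Acat3, and of those of Idi1, 20.7% occur in 4 other genes. The counts of Fdps, Acat2 and Idi1 are therefore uncertain. Acat3 had 98 counts over all libraries against 11530 on Acat2. The genes that share most with Fdps and with Idi1 are not among the deposited genes. Whether they lie at another locus was not checked. No stretch of Hmgcs1, Pmvk or Mvd was shared, although 28.6% of Mvd exon bases overlap an antisense locus that had 142 counts over all libraries against 4420 on Mvd.

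Farnesyl diphosphate is also the source of prenyl groups, dolichol and coenzyme Q. For 10 genes of these branches the median log2 fold change was 0.07. Of these, 1 was higher, 1 was lower and 8 did not pass, beside 15.0% higher and 14.7% lower among all tested genes. Coq2, the prenyltransferase of coenzyme Q synthesis, had 31.4 and 33.9 normalized CPM in siNT and 44.9 and 37.9 in siCnot1, a log2 fold change of 0.34 (adjusted p = 0.00975, edgeR). Fnta, a subunit of farnesyltransferase, had 76.6 and 79.1 against 68.4 and 66.9, a log2 fold change of -0.20 (adjusted p = 0.0310, edgeR).

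Cyp51 fell most of the 28 genes. Its product, lanosterol 14-alpha-demethylase, carries out the first step after lanosterol. Cyp51 (chromosome 5, 4130674 to 4154697) had 245 and 244 normalized CPM in siNT and 148 and 138 in siCnot1. The siNT libraries were almost equal and both siCnot1 libraries lay far below them, at 58.4% of the siNT level. The means were 245 ± 1.21 and 143 ± 6.76 (SD, n = 2 per group), and the log2 fold change was -0.78 (SE 0.0585, edgeR adjusted p = 1.58e-09). No 75-base stretch of its transcript occurs in another gene of GENCODE M21. Its call at an adjusted p under 0.05 held under each scaling, filter and test and in each leave-out fit, but the change is short of 2-fold.

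After Cyp51 the route passes through a reductase, and then through C4-demethylation. Tm7sf2 (chromosome 19, 6112851 to 6117880), a sterol C14-reductase, had 9.86 and 10.4 normalized CPM in siNT and 18.4 and 13.9 in siCnot1. The groups were separate, but the siCnot1 libraries differed widely from each other. Its log2 fold change was 0.67 (SE 0.142, edgeR adjusted p = 8.45e-04), the largest rise of the 28, in the gene with the second lowest FPKM in siNT. Msmo1 (chromosome 8, 65171157 to 65186822), the C4-methyl sterol oxidase, had 171 and 182 against 216 and 207, a log2 fold change of 0.26 (SE 0.0588, edgeR adjusted p = 0.00149). Dhcr7 (chromosome 7, 143376825 to 143402147), the 7-dehydrocholesterol reductase of a late step, had 83.3 and 89.5 against 102 and 111, a log2 fold change of 0.30 (SE 0.0673, edgeR adjusted p = 0.00133). In Msmo1 and Dhcr7 both siCnot1 libraries were above both siNT libraries, by a margin wider than the gap between replicates. The neighbours Msmo1 and Cyp51 therefore moved apart, with a log2 ratio of Msmo1 to Cyp51 (FPKM) of 0.38 and 0.48 in siNT and 1.46 and 1.49 in siCnot1.

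Tm7sf2 lost its call without siNT replicate 1 (adjusted p = 0.131, edgeR), siNT replicate 2 (0.0866), siCnot1 replicate 1 (0.0887, with a log2 fold change of 0.45) or the filter on low counts (0.0597). Msmo1 lost it without siNT replicate 1 (0.0987) or siCnot1 replicate 1 (0.0782), and Dhcr7 without siNT replicate 1 (0.114), siCnot1 replicate 2 (0.0963) or the filter (0.0515).

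The other 7 enzymes of these steps did not pass the test. Fdft1, the squalene synthase, had 206 and 208 normalized CPM in siNT and 194 and 200.4 in siCnot1, and the 95% interval of its log2 fold change ran from -0.19 to 0.05 (adjusted p = 0.384, edgeR). Of its exon bases, 7.43% overlap Ctsb on the other strand. Sqle, the squalene epoxidase, had 199 and 205 against 215 and 224 (adjusted p = 0.129, edgeR), and it passed as higher only with library totals (0.00323). Lss, the lanosterol synthase, had 117 and 109.8 against 115 and 119, with an interval from -0.08 to 0.18. Nsdhl, a dehydrogenase of C4-demethylation, had 47.6 and 59.0 against 55.9 and 55.9, with an interval from -0.12 to 0.26, and its siNT replicates lay on either side of the siCnot1 values. Hsd17b7, the reductase of the same step, had 46.8 and 47.2 against 46.6 and 45.5, with an interval from -0.20 to 0.14. Ebp, the sterol isomerase, had 31.8 and 31.7 against 29.1 and 30.5, with an interval from -0.29 to 0.10. Sc5d, the C5-desaturase, had 52.6 and 55.6 against 60.5 and 55.4, with an interval from -0.07 to 0.27. Each of these intervals lay within 0.3 of 0 on the log2 scale.

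Electron donors and a scaffold of the sterol enzymes were listed as well, and 5 of the 6 were tested. Erg28, the scaffold of C4-demethylation, fell by 0.28 on the log2 scale (adjusted p = 0.00535, edgeR) and Cyb5r3, the cytochrome b5 reductase, fell by 0.22 (adjusted p = 0.0121, edgeR). Por, which passes electrons to CYP51 and squalene epoxidase, rose by 0.19 (adjusted p = 0.0475, edgeR). The median of the 5 was -0.11.

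Stard4, which encodes a carrier of cholesterol between membranes, fell. It had 133 and 122 normalized CPM in siNT and 91.9 and 103 in siCnot1, with both siCnot1 libraries below both siNT libraries. The log2 fold change was -0.39 (SE 0.0689, edgeR adjusted p = 1.44e-04), and without siNT replicate 1 the gene did not pass (adjusted p = 0.0840). For 10 genes of LXR signalling, sterol esterification and sterol transfer the median log2 fold change was 0.11. Of these, 2 were higher and 1 lower, beside 15.0% higher and 14.7% lower among all tested genes. Abcg1, a sterol exporter and LXR target, had 2.57 and 3.00 normalized CPM against 6.68 and 5.82, a log2 fold change of 1.17 (adjusted p = 2.18e-04, edgeR). Lipa, the lysosomal acid lipase, had 8.32 and 11.1 against 15.3 and 14.8, a log2 fold change of 0.64 (adjusted p = 0.00143, edgeR). Mylip, a ubiquitin ligase for lipoprotein receptors, had 6.90 and 9.72 against 5.46 and 5.82, a log2 fold change of -0.56 (adjusted p = 0.0246, edgeR).

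**Figure D3:**
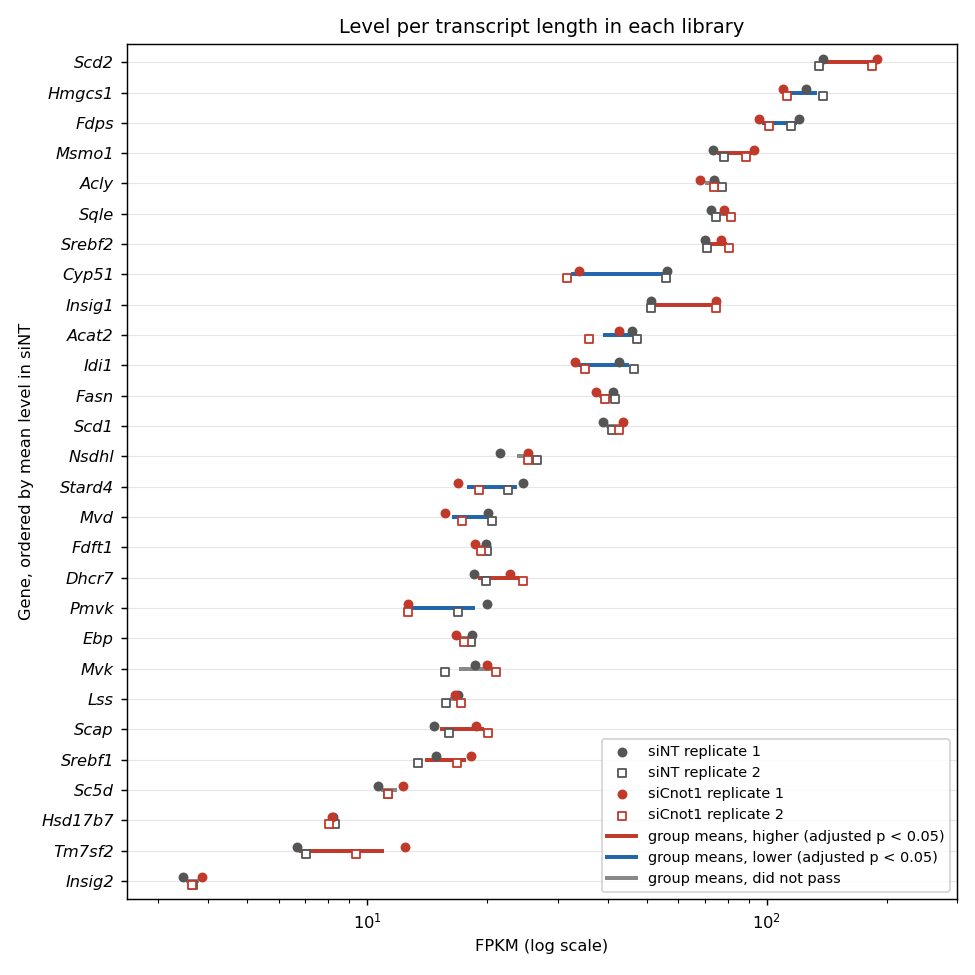
FPKM of each gene in each library on a log axis (horizontal), with genes ordered by their mean level in siNT (vertical axis). Colored lines join the group means. Scd2 is the highest gene in both groups and Insig2 the lowest, and Insig1 and Cyp51 exchange order between the groups.

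Among the lipogenic genes Scd2 rose and the other 3 did not pass the test. Scd2 (chromosome 19, 44282115 to 44295303), a stearoyl-CoA desaturase that makes monounsaturated fatty acids, had 752 and 739 normalized CPM in siNT and 1027 and 999 in siCnot1. The gap between the groups was much wider than that between replicates. The log2 fold change was 0.44 (SE 0.0522, edgeR adjusted p = 9.34e-07), and Scd2 was also the most strongly expressed of the 28 genes per length, with a mean FPKM of 137 ± 1.72 in siNT and of 186 ± 3.65 in siCnot1 (SD, n = 2). In siNT its values overlapped those of Hmgcs1, which had 126 and 139 FPKM against 138 and 135 for Scd2. In siCnot1 they did not, at 110.0 and 113 for Hmgcs1 against 188 and 183 for Scd2. Its paralog Scd1 had 188 and 198 normalized CPM against 211 and 206, and the 95% interval of its log2 fold change ran from -0.01 to 0.23 (adjusted p = 0.167, edgeR). Scd1 passed only with library totals (0.00511). The log2 ratio of Scd2 to Scd1 (FPKM) was 1.82 and 1.73 with siNT but 2.11 and 2.11 with siCnot1, and 1.80% of the 75-base stretches of Scd2 occur in other genes. Acly, which makes cytosolic acetyl-CoA from citrate, had 579 and 606 normalized CPM against 535 and 578, with an interval from -0.21 to 0.03. Fasn, the fatty acid synthase, had 430.4 and 434 against 391 and 410.0, with an interval from -0.22 to 0.002 (adjusted p = 0.134, edgeR).

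The wider list of fatty acid precursor, elongation and desaturation genes held 21 genes, with a median log2 fold change of 0.25. Of these, 10 were higher and 4 lower, beside 15.0% higher and 14.7% lower among all tested genes. Mlxipl, which encodes the glucose-responsive factor ChREBP, had 2.02 and 1.88 normalized CPM in siNT and 9.34 and 6.87 in siCnot1, a log2 fold change of 2.05 (adjusted p = 2.84e-07, edgeR). It was the only gene of the list that changed at least 2-fold. Me1, the malic enzyme that supplies NADPH, had 104 and 113 against 72.1 and 66.6, a log2 fold change of -0.65 (adjusted p = 2.76e-07, edgeR). Elovl5, an elongase of polyunsaturated fatty acids, had 147 and 145 against 112 and 97.5, a log2 fold change of -0.47 (adjusted p = 1.08e-05, edgeR). Genes of fatty acid oxidation were listed for contrast. Of 10, 1 was higher and 2 were lower, beside the same shares of all tested genes, with a median of -0.03. Acadm, the medium-chain acyl-CoA dehydrogenase, had 152 and 152 against 98.3 and 92.1, a log2 fold change of -0.67 (adjusted p = 2.87e-08, edgeR). Hadhb, a subunit of the trifunctional protein, had 41.1 and 51.7 against 73.3 and 75.8, a log2 fold change of 0.68 (adjusted p = 3.68e-06, edgeR). Acaa2, a mitochondrial thiolase, fell by 0.37 on the log2 scale (adjusted p = 3.06e-04, edgeR).

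Ratios between genes within a library are free of the choice of scaling. The log2 ratio of the summed FPKM of the SREBP system to that of the mevalonate pathway went from -1.35 and -1.37 in siNT to -0.78 and -0.78 in siCnot1. Insig1 and Cyp51 are both known SREBP targets and were close in siNT, with a log2 ratio of -0.14 and -0.13, but in siCnot1 Insig1 was above Cyp51, with 1.14 and 1.24. Dhcr7 against Idi1 gave -1.21 and -1.23 in siNT and -0.54 and -0.52 in siCnot1. In these ratios the groups were separate and replicates lay close together. For Srebf1 against Srebf2 the siNT libraries gave -2.24 and -2.40, and the siCnot1 libraries -2.08 and -2.26. Here the groups overlapped. These pairs were chosen after their values were seen and were given no test. An exact permutation test over libraries cannot go below a two-sided p of 0.333 with 2 against 2.

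**Figure D4:**
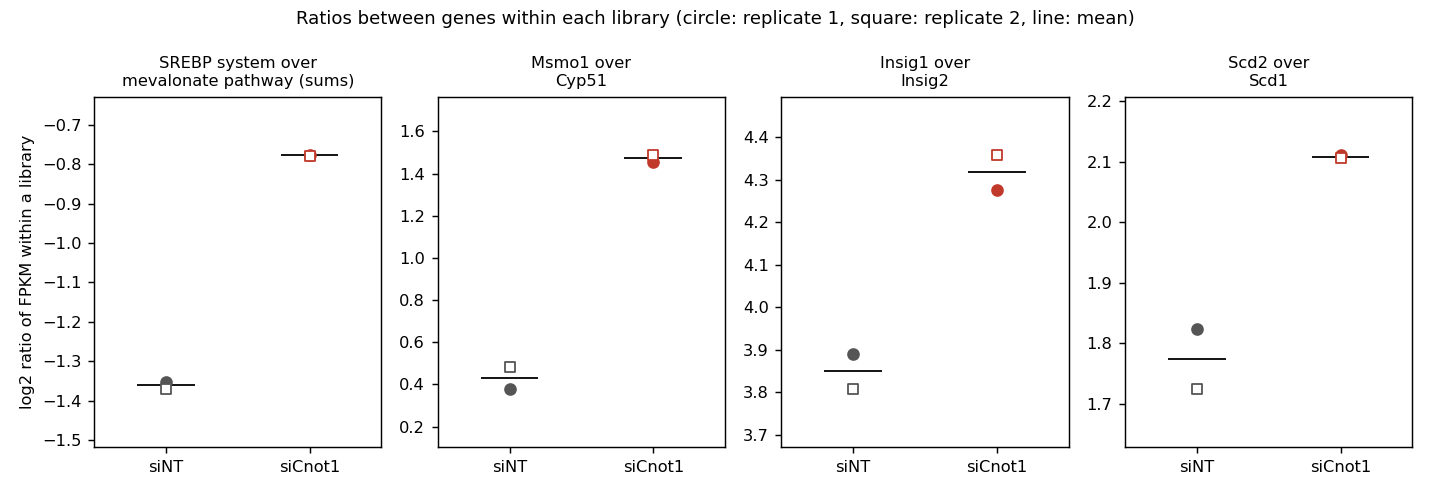
Log2 ratio of FPKM between genes of one library (vertical axis), for siNT and siCnot1 (horizontal axis). Circles are replicate 1, squares replicate 2 and lines the mean of the 2 libraries, and each panel has its own axis. In all 4 panels both siCnot1 libraries lie above both siNT libraries. The panels were chosen after their values were seen and were given no test. The ratio of Srebf1 to Srebf2, where the groups overlapped, is not shown.

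CCR4-NOT can be brought to mRNAs by proteins that bind AU-rich elements or Pumilio elements in the 3′ UTR. Both were searched on the sense strand in the longest coding GENCODE M21 transcript of each gene, matched by symbol. The 3′ UTRs of the 28 genes had a median length of 1217 bases, against 1090 for the 14027 tested genes with one. TATTTAT was present in 6 of the 28 (21.4%), against 29.1% of those genes, and TGTANATA in 5 of the 28 (17.9%), against 25.4%. Each motif was counted on its own, whether or not its letters overlapped the other, and a match is not a bound site. Of the 8 genes that were higher, Srebf1 held both, Insig1 held TATTTAT, and Srebf2 and Msmo1 held TGTANATA. The other higher genes, Scap, Tm7sf2, Dhcr7 and Scd2, held neither. Of the 8 that were lower, the 6 mevalonate genes and Cyp51 held neither, and Stard4 held TGTANATA. Among genes that did not pass, Insig2, Hsd17b7, Sc5d and Fasn held TATTTAT and Sqle held TGTANATA. Whether a match goes with the direction of change was not tested.

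The sites of the SREBP system genes, Msmo1 and Sqle are shown, to set genes that rose beside Insig2 and Sqle, which did not pass, with 8 bases on each side and the motif in capitals, 5′ to 3′ on the strand of the gene (GRCm38). They lie in 3′ UTRs, at chr5:28077227-28077249 and chr5:28077801-28077823 (plus) for Insig1, chr11:60199591-60199613 and chr11:60199710-60199733 (minus) for Srebf1, chr15:82205223-82205246 (plus) for Srebf2, chr1:121304861-121304883 and chr1:121304508-121304530 (minus) for Insig2, chr8:64718397-64718420 (minus) for Msmo1 and chr15:59330954-59330977 and chr15:59331018-59331041 (plus) for Sqle. Hsd17b7 held 5 sites, and Sc5d, Fasn and Stard4 held 1 each.
Insig1 first site: agtaagaaTATTTATccagaatt
Insig1 second site: ctcgtaaaTATTTATtttgtaat
Srebf1 TATTTAT site: aatgaaatTATTTATaacttcag
Srebf1 TGTANATA site: gggagaccTGTACATAgtgtagat
Srebf2 site: tgtgtctgTGTATATActgtgcct
Insig2 first site: ctgccatgTATTTATgggttaag
Insig2 second site: cactactcTATTTATtattctgt
Msmo1 site: ctacgtgaTGTACATAgaatatta
Sqle first site: gaagaggaTGTATATAgcatagaa
Sqle second site: tataagcaTGTAAATAtaagcctt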

How the data were processed

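RNA-seq of 4 poly(A)+ libraries, 2 siNT and 2 siCnot1, was used. The authors deposited raw counts per gene with the exon length of each gene, without normalization or pooling. The submitters' processing notes name fastp 0.19.4, HISAT2 2.2.1, DESeq2 1.40.2 and mm10, but 0 of the 28 genes had the start given by RefSeq for GRCm38.p6. The deposited positions were taken to be those of GRCm39, and no annotation of that build was compared. The counting program and its strand setting are not given in the sources used here, although the extraction protocol in the labels describes dUTP marking of the second strand. Genes sharing sequence or overlapping on the other strand may therefore exchange reads.

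The counts were filtered with filterByExpr (minimum count 10), scaled by TMM and compared with edgeR 4.0.16 (quasi-likelihood test, group as the only term, Benjamini-Hochberg adjustment over 18144 genes) in R 4.3.3. Standard errors were taken from the F statistic (log2 fold change over its square root), and intervals are 95% intervals. FPKM were computed from counts, exon length and TMM-scaled library size. The script was tested on simulated data. Library totals ranged from 32135824 to 32557440 counts. Pearson's r of log2 CPM between replicates, across genes, was 0.996 in each group, and the chi-square per degree of freedom between replicates was 6.71 and 5.61, so replicates differed by more than sampling noise.

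The study compared the groups with DESeq2 at an unadjusted p of at most 0.05 and a log2 fold change of at least 1. The alternatives were scaling by DESeq2's size factors, upper quartiles or library totals, no filter, at least 1 CPM in 2 libraries, DESeq2 1.42.0, limma-voom (limma 3.58.1), the replicate number as a block, and leaving out each library. All 28 genes are named, and from each other list at most the 3 genes with the smallest adjusted p under 0.05. The fibroblast markers Thy1 and Dcn are named besides, for their levels. The members, lists and tests were chosen with earlier results of these data known. Promoters are from RefSeq (GRCm38.p6) and transcripts from GENCODE M21. A planned comparison of protein sequences between paralogs was not run. A gene of the other lists is not reported here.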

Additional observations from a re-analysis of the deposited data

How the results depend on the processing

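Depth was close in all libraries, and each group had 2. In the fits that left out 1 library, the lone library of a group was assumed to vary like the other group. Across these 4 fits the members called higher ranged from 2 to 5 and those called lower from 4 to 6, the median log2 fold change of the members from -0.0057 to 0.0593, all genes called higher from 743 to 1444 and all genes called lower from 871 to 1469. Nsdhl ranged from -0.0821 (without siNT replicate 1) to 0.231 (without siNT replicate 2) and Lss from -0.00105 (without siNT replicate 2) to 0.0910 (without siNT replicate 1).

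Library totals in place of TMM gave 4 members lower, a median of 0.17 and 1567 genes lower, and turned Fdft1 to 0.0360, Hsd17b7 to 0.0778, Ebp to 0.0149 and Acly to 0.0161, since this scaling adds about the same amount to the log2 fold change of every gene. Upper-quartile scaling moved the median to 0.0781. Without a filter on low counts, with 30308 genes tested in place of 18144, 4 members were higher, and 1303 genes were higher and 1450 lower. At the thresholds of the study, 0 members were higher and 0 lower, because none changed 2-fold. DESeq2 gave 8 higher and 8 lower members. With the replicate block, 7 members were higher and 8 lower, with a median of 0.06, and 2524 genes were higher and 2431 lower. Srebf2 was the member that did not pass under the block (adjusted p = 0.0558, edgeR). Libraries with the same number deviated from their group means with a correlation of -0.01 across genes. With 2 libraries per group that value cannot tell whether they were prepared together, and the labels do not say. The other values of the 28 genes kept their direction in these settings, and the causes of the moves were not tested beyond those stated.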
